A study of Canis lupus familiaris with 10 samples.

Results

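The interleukin-1 (IL-1) family and inflammasome genes were examined in canine cutaneous histiocytoma (CCH), a skin tumor of the Langerhans cell lineage that often regresses on its own. The set was defined by 10 gene symbols, namely the agonist ligands IL1A, IL1B and IL18, the natural antagonists IL1RN, IL18BP and IL1R2, the signaling receptor IL1R1, and the inflammasome genes NLRP3, PYCARD and CASP1. Of these 10 symbols, 9 were rows of the deposited table of 23266 genes, and CASP1 was not. In the RefSeq gene table for the newer dog assembly UU_Cfam_GSD_1.0, CASP1 is an older name of CASP4, and the CASP4 row is therefore described beside the members.

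The data were QuantSeq 3′ libraries from formalin-fixed, paraffin-embedded (FFPE) tumors of pet dogs from a pathology archive, with 5 libraries of the early stage (group 1 of a histological staging scheme) and 5 of the late stage (group 3, labeled as enriched in lymphocytes). The labels mark the samples of both stages as a reanalysis and name no treatment. The dogs were of both sexes and mixed breeds, and their ages ran from 0.5 to 5 years in early CCH (4 dogs with an age given) and from 1.5 to 9 years in late CCH. The libraries held between 2973125 and 4439709 reads assigned to genes. DV200, a percentage that is higher for longer RNA fragments, was 68.5% ± 2.46 in early and 73.2% ± 2.09 in late samples (SD, n = 5 each), and no RNA extraction batch held samples of both stages, so that stage, RNA quality and batch cannot be told apart. Among Langerhans and dendritic cell markers, CD207 was not a row of the table, while CD1A8 had a normalized read count of 42.8 to 316 in early and 0 to 35.8 in late libraries. Of the 6 markers of this list that were tested, limma called 2 (FLT3 and FCER1A, both lower in late CCH), edgeR 1 and DESeq2 3. Among all 12397 genes tested, the counts were 269, 177 and 810. CDH1, EPCAM and ITGAX were not called by limma.

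IL-1 alpha and IL-1 beta are alarm cytokines that activate IL1R1 together with the accessory protein IL1RAP and, through MYD88, the transcription factor NF-kappaB. Their action is held back by the receptor antagonist encoded by IL1RN and by IL1R2, a decoy receptor that binds the ligand without signaling, while the product of IL18BP captures IL-18. The inflammasome is a protein platform built from a sensor such as NLRP3, the adaptor PYCARD (also called ASC) and the protease caspase-1, which matures IL-1 beta and IL-18. In skin, keratinocytes, macrophages and Langerhans cells are well-known sources of these products.

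No member was called different between the stages. The fit was limma on log2(value + 1), and called genes had a p adjusted by Benjamini-Yekutieli (BY) of 0.05 or less and a late minus early difference (log2FC) of 1 or more in size. Of the 9 members in the table, 7 passed the filter on low values (a normalized read count of at least 10 in at least 5 libraries), and 0 of the 7 were called. Among all 12397 genes tested the share called was 2.17%, with 1.06% higher and 1.11% lower in late CCH. Of all calls, 48.7% were higher in late CCH as deposited and 64.0% after scaling to column totals. At an unadjusted p of at most 0.05, 3 members remained, namely IL18, NLRP3 and PYCARD, where 30.9% of all genes did. With Benjamini-Hochberg (BH) adjustment and the same fold threshold the count was again 0, against 9.04% of all genes. The edgeR and DESeq2 tests on recovered reads also called 0, where they called 177 and 810 of all 12397 genes. The 2 stages overlapped for every member tested, and 12% of all genes tested had no overlap between their 5 early and 5 late values. With only 7 members, a count of 0 does not set them apart from shares this small. The median log2FC of the 7 members was -0.67, and that of all genes tested was -0.004.

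Of the agonist ligands, IL18 encodes a cytokine that drives interferon gamma production by T and NK cells and is made as an inactive precursor. Its normalized read count was 479, 493, 663, 452 and 451 in early libraries 1 to 5, and 741, 756, 996, 1763 and 635 in late libraries 1 to 5. Early library 3 lay above late library 5, while the other 4 late libraries exceeded every early one. The mean was 508 ± 88.7 in early and 978 ± 458 in late CCH (SD, n = 5 each). The corresponding log2FC was 0.86 ± 0.25 (SE), which is a 1.81-fold change with a 95% interval from 1.25 to 2.62. The BY-adjusted p from limma was 0.347. The BH-adjusted p was 0.0347, so that IL18 was the single member at or under 0.05 by this adjustment when no fold threshold was applied, as were 15.6% of all genes tested. Without late library 4, which had the highest value, the log2FC was 0.62. In these bulk samples, more cells of a type and more RNA per cell cannot be told apart.

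IL1A and IL1B stayed near the detection limit. A count of 0 allows up to 3 reads, equal to 2.36 to 3.22 in normalized read count, depending on the library. IL1A had 2, 35, 0, 5 and 0 reads in early libraries 1 to 5 and 13, 19, 4, 5 and 26 reads in the late libraries. IL1A thus had more than 3 reads in each late library but, among the early ones, only in libraries 2 and 4. The highest count was in early library 2, and the 2 reads of early library 1 lay within what a count of 0 allows. IL1B had 8, 31, 3, 0 and 0 reads in the early libraries, and a single late library held any, with 2 reads. Early library 2 therefore supplied 31 of the 42 early reads of IL1B. Neither gene passed the filter, and neither was called in a fit without a filter (limma, BY-adjusted p = 1 for both). Such limits cover counting error only, since reads can be PCR copies of the same molecule.

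**Figure D1:**
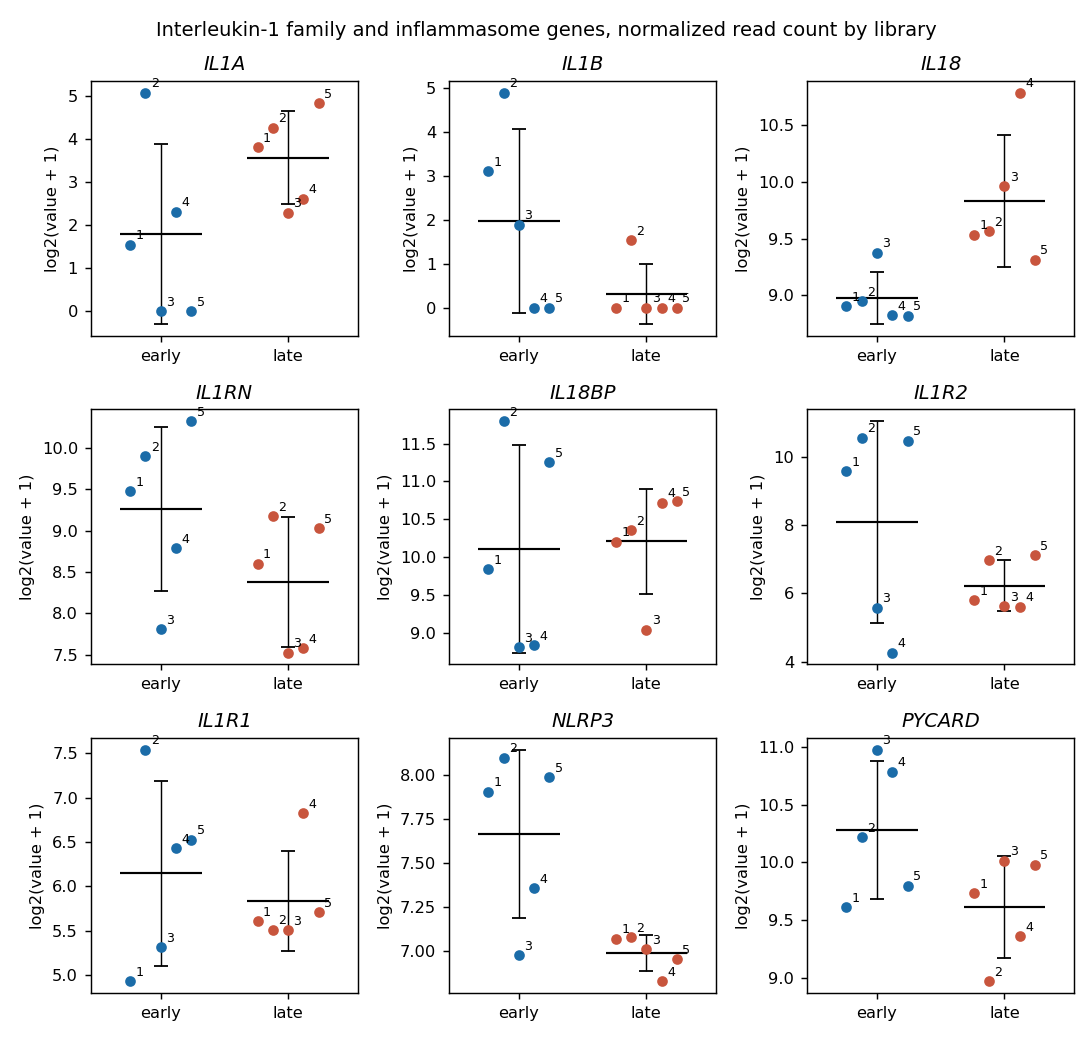
Values of the 9 members in each library, as log2(normalized read count + 1), with early libraries in blue and late libraries in red; numbers name the libraries, horizontal lines are means and error bars SD (n = 5). IL1R2 spans from 18.1 to 1528 in early CCH and from 48.1 to 138 in late CCH, and NLRP3 lies close together in late CCH.

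The antagonists spread widely among early tumors, and none was called between the stages by limma, edgeR or DESeq2. At an unadjusted p of at most 0.05 the count was 0 of 3, beside 30.9% of all genes. IL1R2 had a normalized read count of 768, 1528, 47.0, 18.1 and 1428 in early libraries 1 to 5, and 54.7, 125, 48.4, 48.1 and 138 in late libraries 1 to 5. Early libraries 1, 2 and 5 thus lay far above every late library, while early libraries 3 and 4 lay below all of them. The early range was 84.3-fold and the late range 2.88-fold. The log2FC was -1.87 ± 1.10 (SE) with a 95% interval from -4.26 to 0.52, which includes both no change and a strong decrease (adjusted p = 1 by limma with BY). It was -3.19 in edgeR and -3.20 in DESeq2 (adjusted p = 0.446 and 0.109 with BY), -2.83 without early library 4, and -1.25 and -1.27 without early library 2 or 5.

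IL1RN encodes the soluble antagonist that occupies IL1R1 without activating it. Its normalized read count was 712, 956, 223, 442 and 1284 in the early libraries and 388, 577, 183, 190 and 524 in the late ones. As for IL1R2, early libraries 1, 2 and 5 exceeded each late library, and early libraries 3 and 4 lay within the late range. The means were 724 ± 418 and 372 ± 183 (SD, n = 5 each), with a log2FC of -0.88 ± 0.46 (SE, adjusted p = 1 by limma with BY).

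IL18BP encodes the secreted protein that binds IL-18 and is itself induced by interferon gamma. Its values were 914, 3562, 448, 456 and 2441 in the early libraries and 1178, 1307, 525, 1687 and 1707 in the late ones. Early libraries 2 and 5 were the highest of all 10, and early libraries 3 and 4 the lowest. The log2FC of 0.10 ± 0.56 (SE) had a 95% interval from -1.11 to 1.32 (adjusted p = 1 by limma with BY), and its sign was not stable. It was -0.28 in edgeR, -0.29 in DESeq2, -0.22 without early library 3, -0.21 without early library 4, and -0.024 and -0.028 without late library 4 or 5.

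The signaling receptor IL1R1 is required for the response to both forms of IL-1. It had values of 29.5, 185, 38.9, 85.1 and 91.3 in the early and of 47.7, 44.7, 44.6, 112 and 51.4 in the late libraries. Early library 2 was the highest of all libraries and late library 4 the second highest, and the groups overlapped over most of their range. The log2FC was -0.32 ± 0.46 (SE, adjusted p = 1 by limma with BY), and without early library 2 it was 0.033.

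Both inflammasome members had lower means in late CCH. NLRP3 encodes a sensor of membrane damage and cell stress. Its normalized read count was 239, 274, 125, 163 and 253 in the early libraries and 133, 134, 128, 112 and 123 in the late ones. Early library 3 lay within the late range, and the other 4 early libraries exceeded every late value. The means were 211 ± 63.7 and 126 ± 8.88 (SD, n = 5 each), with a log2FC of -0.68 ± 0.22 (SE) and a 95% interval from -1.15 to -0.21 (adjusted p = 0.516 by limma with BY and 0.0516 with BH). In all alternatives run, its log2FC lay between -0.85 and -0.57.

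PYCARD encodes the adaptor that joins the sensor to the protease. It had values of 781, 1189, 2015, 1764 and 888 in the early libraries and 848, 499, 1032, 655 and 1007 in the late ones. The high values came from early libraries 3 and 4, which were the lowest early libraries for NLRP3, IL1RN, IL18BP and IL1R2. The log2FC was -0.67 ± 0.28 (SE) with a 95% interval from -1.29 to -0.05 (adjusted p = 1 by limma with BY and 0.131 with BH).

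CASP4, whose RefSeq record carries CASP1 as an older name, encodes an inflammatory caspase. Its values were 405, 1018, 463, 488 and 872 in the early and 605, 655, 555, 673 and 786 in the late libraries. The late libraries all lay within the early range. Its log2FC was 0.10 ± 0.25 (SE) with a 95% interval from -0.43 to 0.64 (adjusted p = 1 by limma with BY), and it was -0.042 without early library 1.

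**Figure D2:**
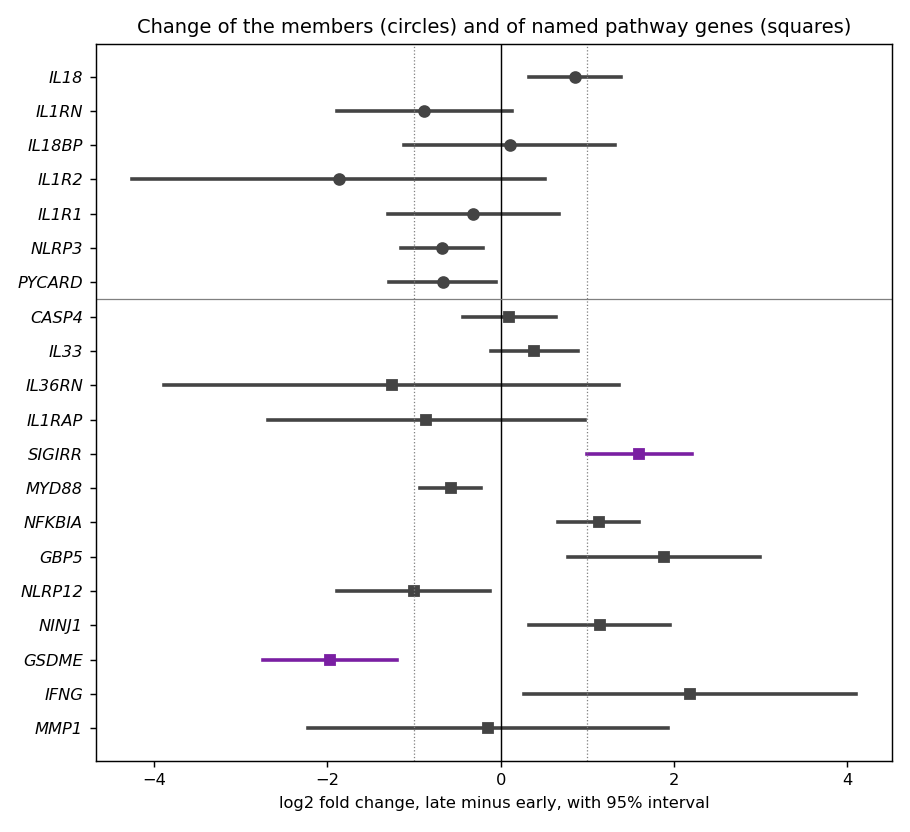
Log2 fold change (late minus early) with 95% intervals from limma for the 7 members past the filter (circles) and for CASP4 and the named genes of the pathway (squares), over 5 early and 5 late libraries; purple marks the called genes and dotted lines a log2FC of 1 in size. SIGIRR at 1.60 and GSDME at -1.97 are called, while the widest interval among the members is that of IL1R2.

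The spread of the members within a stage was described by the SD of log2(value + 1), beside that of all genes tested. The median SD of the 7 members was 0.99 over the early libraries, where the median of all genes was 0.42. Over the late libraries it was 0.58, where that of all genes was 0.41. The 53 other pathway genes tested also spread more in early CCH, with a median SD of 0.67 in early and 0.41 in late libraries. IL1R2 had an early SD of 2.96, and 99.8% of all genes tested had a lower one, while its late SD was 0.75. The early SD was 1.37 for IL18BP, 1.04 for IL1R1 and 0.99 for IL1RN, each above that of at least 87.3% of genes. IL18 was the exception, with an SD of 0.23 in early and 0.58 in late CCH. NLRP3 had a late SD of 0.10, and 1.48% of all genes tested had a lower one.

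**Figure D3:**
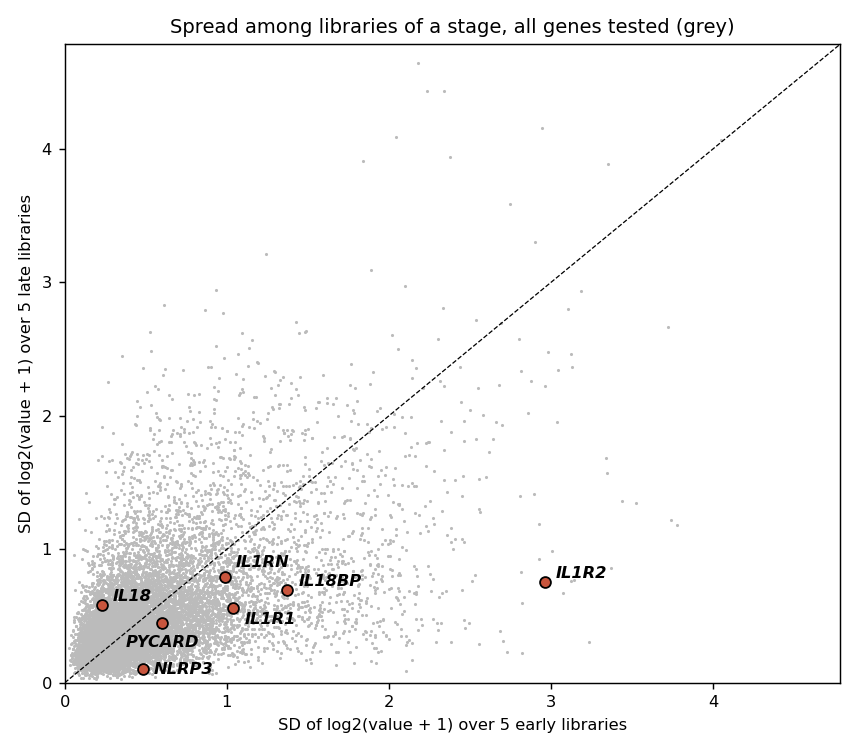
SD of log2(value + 1) over the 5 early libraries (horizontal axis) and the 5 late libraries (vertical axis) for all 12397 genes tested (grey points) and the 7 members past the filter (red points), with the line of equal spread dashed. IL1R2 lies far to the right with an early SD of 2.96, and IL18 is the member above the line.

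Some of the members shared an order of the early libraries, which was described after the values were seen. Early libraries 3 and 4 were the lowest for IL1R2, IL1RN, IL18BP and NLRP3, and the highest for PYCARD. The lowest early libraries were 4 and 5 for IL18, and 1 and 3 for IL1R1 and CASP4. How many of all genes tested share the order was not determined. Among the named pathway genes, early libraries 3 and 4 were also lowest for IL1RAP, GSDME and NINJ1. IL1RAP encodes the accessory chain that IL1R1 and IL1R2 both recruit. IL1RAP had values of 296, 543, 24.4, 26.8 and 221 in early libraries 1 to 5. In the late libraries IL1RAP had 93.5, 125, 20.3, 41.9 and 119, and its late libraries 3 and 4 were also the lowest for IL1RN. The log2FC of IL1RAP was -0.86 ± 0.84 (SE, adjusted p = 1 by limma with BY). It was -1.47 in edgeR and -1.48 in DESeq2, and it ran from -1.42 without early library 3 to -0.31 without early library 2.

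Markers of other cell types differed among the same early libraries. The summed normalized read count of 8 T-cell markers was 50.5, 607, 1867, 1292 and 210 in early libraries 1 to 5 and between 3029 and 4786 in the late ones, with CD5 and TRAT1 at 0 in early library 1. Early libraries 3 and 4 thus held the most T-cell marker reads of the early group. Limma with BY and edgeR called 0 of these markers and DESeq2 called 4. All 8 had late values above every early value, where 12% of all genes tested had no overlap. Of 6 cytotoxic lymphocyte markers tested, limma with BY called 2 (KLRK1 and EOMES, higher in late CCH), edgeR 0 and DESeq2 4. Of 6 B-cell markers tested, limma with BY and edgeR called 0 and DESeq2 3. Over all 12397 genes tested, limma with BY called 269, edgeR 177 and DESeq2 810. The sum of 6 fibroblast markers was 22280, 60438, 7615, 12292 and 45798 in the early libraries, in the same order of libraries as IL1R2 except for its 2 lowest, and between 10533 and 35601 in the late ones. The 10 macrophage markers summed to between 2663 and 11752 in early and between 6269 and 11886 in late CCH, with MARCO at 0 in early libraries 1, 4 and 5 and in late library 3. The 9 keratinocyte markers summed to between 969 and 17274 in early and between 715 and 8821 in late CCH. The neutrophil list, whose S100A8, S100A9 and S100A12 keratinocytes express as well, ranged from 222 to 9379 in early and from 91.0 to 9002 in late CCH. MPO was at 0 in all libraries but early library 2, which held 1 read, within what a count of 0 allows. The part of these cell types in the values of the members was not tested.

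**Figure D4:**
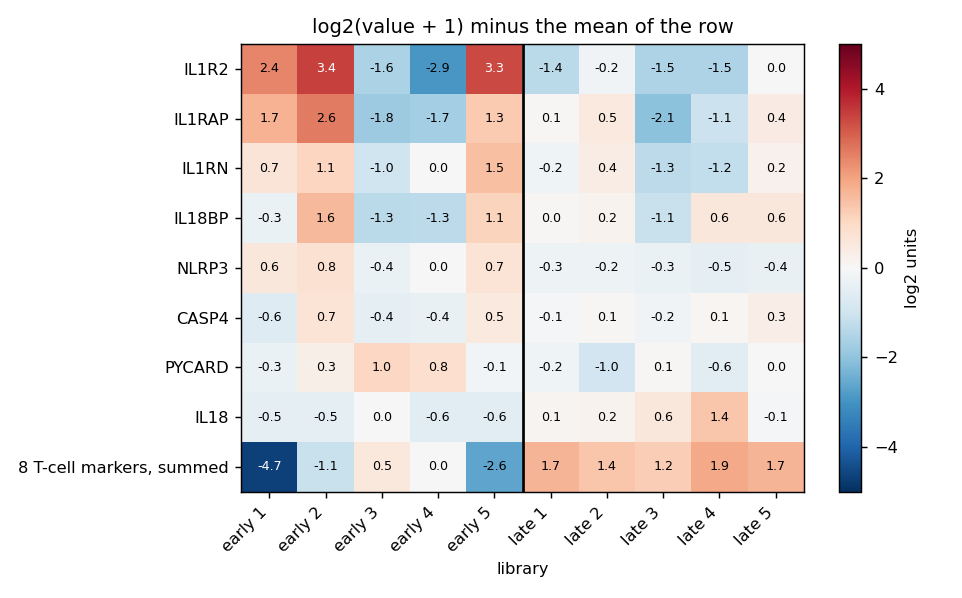
Heatmap of log2(value + 1) minus the mean of its row over all 10 libraries, for 6 members, IL1RAP, CASP4 and the sum of 8 T-cell markers; columns are libraries, red is above and blue below the mean, in log2 units. Early libraries 1, 2 and 5 are red and early libraries 3 and 4 blue for IL1R2 and IL1RAP, while PYCARD is highest in early libraries 3 and 4.

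For each member past the filter, the genes of the most similar course were sought by Pearson's r of log2(value + 1) over the 10 libraries after the mean of each stage had been subtracted. These values are a description, since the best of 12397 genes over 10 libraries reaches a high r without any relation. IL1R2 was most similar to TMOD3 (r = 0.98) and B3GNT9 (r = 0.97), and IL18BP to SERPINF1 and GLT8D1 (r = 0.96 for both). IL1R1 was closest to SLC8A1 (r = 0.96) and SNN (r = 0.94), NLRP3 to MATK (r = 0.96) and FN1 (r = 0.95), and IL1RN to CAPG (r = 0.95) and SLC39A10 (r = 0.94). The values for IL18 were 0.92 with MTMR6 and 0.91 with PRKRA, and for PYCARD 0.93 with DTX3 and 0.91 with ZFP64.

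The other genes of the pathway were read from a list of 77 symbols, of which 71 were in the table and 53 passed the filter. Limma called 2 of the 53 (3.77%), 1 in each direction, beside 2.17% of all genes. With BH adjustment 7 were called (13.2%, beside 9.04% of all genes). EdgeR called 0, beside 177 of all 12397 genes, and DESeq2 called 3, beside 810 of all genes. The stages did not overlap for 5 genes (9.43%, beside 12% of all genes), of which SIGIRR, NFKBIA and CASP8 were above and MYD88 and GSDME below in late CCH. CASP8 was named for this after its values were seen. The median log2FC of the 53 genes was 0.27.

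Among the receptors, SIGIRR rose in late CCH. It encodes a member of the IL-1 receptor family that dampens signaling by IL-1 and Toll-like receptors. Its normalized read count was 47.6, 55.8, 32.6, 28.4 and 19.3 in the early and 105, 111, 117, 112 and 87.1 in the late libraries. All late values exceeded all early ones, with a 3.03-fold change (log2FC 1.60 ± 0.28, SE, adjusted p = 0.0436 by limma with BY). Of 10 alternatives with all libraries, 8 kept the call, among them DESeq2 (BY-adjusted p = 7.2e-05). The call was lost in edgeR (BY-adjusted p = 0.0567) and without a filter on low values (0.0557). It was also lost in 9 of 10 fits with 1 library omitted, all but that without early library 2. The log2FC stayed between 1.40 and 1.77. The 3 other receptors tested were not called. Of the ligands, IL33 had a log2FC of 0.39, and IL36RN, the antagonist of the IL-36 receptor, -1.26 ± 1.21 (SE), which ran from -2.29 without early library 5 to -0.54 without late library 1. Neither was called, and 0 of the 2 ligands tested had an unadjusted p of at most 0.05, beside 30.9% of all genes.

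All 17 signaling genes were tested, and 0 were called by limma with BY or by edgeR. An unadjusted p of at most 0.05 was reached by 2, beside 30.9% of all genes. With BH the count was 1 (9.04% of all genes), and with DESeq2 it was also 1 (810 of all 12397 genes). NFKBIA, which was called under both as well as with column total scaling and with library weights, encodes the inhibitor that keeps NF-kappaB in the cytoplasm and is induced by it. Its values were 738, 1632, 1364, 1763 and 1246 in the early and 2679, 2404, 3317, 2626 and 3245 in the late libraries, so that the groups did not overlap. The log2FC was 1.13 ± 0.22 (SE, adjusted p = 0.0620 by limma with BY). MYD88, the adaptor shared by the IL-1 and IL-18 receptors, had 574, 762, 579, 408 and 513 in the early and 388, 368, 390, 392 and 332 in the late libraries. Its late values all lay below the early ones, with a log2FC of -0.57 ± 0.16 (SE, adjusted p = 0.322 by limma with BY and 0.0322 with BH). MYD88 stayed under the fold threshold, and 15.6% of all genes tested had a BH-adjusted p of 0.05 or less.

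Of the other inflammasome sensors and regulators, 9 of 16 were tested and 0 were called by limma with BY, edgeR or DESeq2. At an unadjusted p of at most 0.05, 4 remained, beside 30.9% of all genes. With BH 1, GBP5, was called, beside 9.04% of all genes. GBP5, an interferon-induced GTPase that promotes NLRP3 assembly, had the highest log2FC with 1.88 ± 0.51 (SE, adjusted p = 0.272 by limma with BY and 0.0272 with BH), and NLRP12 the lowest with -1.0. Of the genes of pyroptotic cell death, 7 of 9 were tested. Limma with BY called 1, GSDME, lower in late CCH, beside 2.17% of all genes. The log2FC was above 0 for the other 6, and the median of the 7 was 0.60. At an unadjusted p of at most 0.05, 4 of the 7 remained, beside 30.9% of all genes. GSDME encodes a pore-forming gasdermin that is cleaved by caspase-3. It had 213, 313, 190, 167 and 192 in the early libraries and 50.7, 64.7, 21.3, 52.2 and 111 in the late ones. Every late value lay below every early value, with a log2FC of -1.97 ± 0.35 (SE, adjusted p = 0.0479 by limma with BY). Of 10 alternatives with all libraries, 6 kept this call, among them DESeq2 (BY-adjusted p = 0.000141). The call was lost in edgeR (BY-adjusted p = 0.0711), with pseudocount 0.5 (0.0513), without a filter (0.0513) and with column total scaling (0.0619). It was also lost in 8 of 10 fits with 1 library omitted, all but those without late library 3 or 5. NINJ1, which encodes a membrane-rupture protein, had the highest log2FC of this group with 1.14 ± 0.38 (SE, BY-adjusted p = 0.579).

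Of 20 genes that respond to IL-1 or IL-18, 14 were tested and 0 were called by limma with BY, edgeR or DESeq2, while 6 had an unadjusted p of at most 0.05 (30.9% of all genes did) and 3 were called with BH (9.04% of all genes). The 3 were ICAM1, TNF and BIRC3, each higher in late CCH. The log2FC was above 0 for 11 of the 14 genes, beside 6171 of all 12397. The median of the 14 was 0.95, beside -0.004 for all genes. IFNG, which IL-18 induces, had the highest log2FC with 2.19 ± 0.89 (SE, BY-adjusted p = 1). MMP1 had the lowest with -0.14 and no stable sign. Early library 2, which had the most reads of IL1A and IL1B, had the highest early value of 12 of the 14 genes tested and the highest of all 10 libraries for 6, where 23.0% and 11.8% of all genes tested did. This library also had the highest early sums of the macrophage (11752), fibroblast (60438), neutrophil (9379) and endothelium (934) markers, whose part in these values was not tested. Chosen after its values were seen, IL6 had 40.9, 310, 0.905, 0 and 0 in the early and between 5.97 and 64.7 in the late libraries. CXCL8, chosen in the same way, had 205 in early library 2, where the other early libraries had at most 14.2 and the late libraries at most 71.3. Neither gene was called. The log2FC was 1.75 for IL6 and 0.94 for CXCL8, while their means were lower in late CCH (31.5 and 41.6, against 70.3 and 48.8 in early CCH), since on the log scale the early libraries with few or no reads weigh more than early library 2.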

How the data were processed

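The members and gene lists were chosen with earlier results of these data known. According to the study's methods, reads were trimmed with Cutadapt, aligned with STAR to CanFam3.1 and counted with featureCounts, with a second round on genes extended by 2 kb at their 3′ end (versions not given in the sources used here). The deposited signal is a read count divided by 1 size factor per library, made by the authors. In the 10 columns used, 100% of the 166096 values above 0 were whole multiples of the value of 1 read (within 0.001 reads). The other 11 columns were not used. Column names show the stage, and the labels tie no column to a sample, so library numbers are only names and DV200 and age were given by stage. All 10 libraries entered limma 3.58.1 in R 4.3.3 (lmFit and eBayes with a mean-variance trend, log2(value + 1), no covariates), and p-values were adjusted by BY over all genes tested. P-values set the difference between the stages against the spread among libraries of the same stage, which come from tumors of different dogs. Because the unit is normalized, edgeR 4.0.16 and DESeq2 1.42.0 on recovered reads were alternatives. Other alternatives were pseudocounts 0.5 and 5, no filter or a mean of at least 50, TMM and column total scaling, BH adjustment, library weights, and omission of each library. Named genes were the members, the pathway genes called, those with the highest and lowest log2FC of each sublist, and the 2 genes most similar to each member, and CASP4 was added for its older name. The scripts were tested on simulated data. No sequences are shown, since none for these genes were at hand.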

Additional observations from a re-analysis of the deposited data

Results flagged for a closer look

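For each gene and stage, the gap between an extreme library and the next, as a part of the range of the 5 libraries, was set against a critical value of 0.71. It was exceeded in 8 of 44 groups. The number expected by chance, about 2.2, would hold for independent and normally distributed values. Here the values were normalized read counts on a linear scale, some near 0, and some genes had been named for an extreme log2FC. The excess was therefore not read as a result. IL1B in late CCH was bound to reach a ratio of 1, since a single library had reads. Early library 2 stood apart for IL1A (0.879, with a normalized read count of 32.6 and the next early library at 3.94), for IL1B (0.736, 28.8 and 7.62) and for MMP1 (0.866, 277 and 51.5). IL1B in late CCH was above 0 in late library 2 alone (ratio 1), on 2 reads, which is under the limit that a count of 0 allows. Late library 2 also stood apart for IL36RN (0.799, 62.8 and 12.6). Late library 4 stood apart for IL1R1 (0.899, 112 and 51.4) and for MMP1 (0.777, 339 and 80.9). Early library 3 stood apart for IL18 (0.801, 663 and 493). The causes were not tested.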

How the results depend on the processing

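No paired analysis was possible because no replicate number stands in the column names and the samples come from different dogs, so the fit with a replicate block was not run. The number of members called was 0 under each alternative run. Of the 7 members past the filter, IL18, IL1RN, IL1R2, NLRP3 and PYCARD kept their sign under each alternative. IL18BP was reversed in edgeR (-0.28) and DESeq2 (-0.29) and lay between -0.22 and 0.53 when 1 library was left out, and IL1R1 between -0.62 and 0.033. The number of pathway genes called (2, with 1 higher and 1 lower in late CCH) became 1 with pseudocount 0.5 (0 lower), 0 without a filter and 0 in edgeR (0 higher and 0 lower in both), and 7 with BH (6 higher). Column total scaling gave 2 higher and 0 lower, and DESeq2 and library weights 2 higher each. Leaving out 1 library gave 0 to 2 calls, 0 to 2 higher and 0 to 1 lower. CASP4 lay between -0.042 and 0.29 without 1 library. MMP1 was reversed in edgeR (0.26), DESeq2 (0.24) and with library weights (0.25), and lay between -0.90 and 0.51 without 1 library. BY is stricter than BH by construction, and the other causes were not tested. At 5 libraries a stage, the interval of IL1R2 does not exclude a large decrease or a small increase, and IL1A and IL1B are limited by depth.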

Other observations

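The balance of ligand and antagonist was followed within each library as a log2 ratio, a description without a test. QuantSeq 3′ counts 1 fragment per transcript, so that these ratios were not divided by gene length. The log2 ratio of IL18 to IL18BP was -0.93, -2.85, 0.57, -0.01 and -2.44 in early libraries 1 to 5 and -0.67, -0.79, 0.92, 0.06 and -1.43 in late libraries 1 to 5. The means were -1.13 ± 1.49 and -0.38 ± 0.90 (SD, n = 5 each), a difference within the spread. The log2 ratio of the receptor IL1R1 to the decoy IL1R2 was -4.70, -3.04, -0.27, 2.23 and -3.97 in the early and -0.20, -1.48, -0.12, 1.23 and -1.43 in the late libraries. Reads of IL1R2 thus exceeded those of IL1R1 most in early libraries 1, 2 and 5, and the groups overlapped. Protein was not measured.

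Several other relatives stayed under the filter. IL36B, an epithelial agonist of the family, had 20.0, 44.7, 3.62, 66.9 and 0 in the early libraries and 0, 48.5, 0, 4.09 and 0 in the late ones. IL1RL1, the receptor of IL-33, had 44 reads in each stage, and IL37 had 19 early and 7 late reads. No change was read from these values.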
